A study of Mus musculus with 22 samples.

Results

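Transcript levels at ZT22, near the end of the night, were compared with those at ZT14, early in the night, in livers of male mice without adiponectin. Zeitgeber time (ZT) counts hours from lights on, so with 12 h of light and 12 h of darkness the night begins at ZT12, and the 2 times lie 8 h apart. Mice are mainly active and feed mainly in the dark, but activity and food intake of these mice were not analysed here, so the groups stand for times of the night. The comparison used all 4 ZT14 arrays and all 4 ZT22 arrays, 8 of 22 in the series, and all 22206 features of the Clariom S array. The members were chosen by the time in the labels, and no measured value entered that choice.

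Both groups had the same genotype, a global adiponectin knockout (B6;129-Adipoqtm1Chan/J on C57BL/6J), and the same sex, food (standard chow, free access) and age range (3 to 8 months). Every cell of these mice lacks the gene from conception on, and wild-type mice were not analysed here, so no value below measures an effect of losing adiponectin. The labels state at least 3 mice per time, each array was taken as 1 mouse, and p-values rest on the spread among those arrays. Levels are on a log2 scale as deposited (the base is not stated and was taken as 2), and a difference of 1 is then a 2-fold change. A feature was called changed when its adjusted p from limma (Benjamini-Hochberg over all features) lay under 0.05.

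The liver clock is a loop of transcription factors. BMAL1 (gene Arntl) pairs with CLOCK or NPAS2 and switches on its own repressors, the period, cryptochrome and REV-ERB (Nr1d) genes, through E-box sequences, and REV-ERB in turn represses Arntl, while the PAR bZIP factors such as DBP carry the rhythm to D-box sequences of output genes. On top of the clock, feeding signals through insulin, sterols and body temperature set much of the daily rhythm of liver metabolism.

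From ZT14 to ZT22 transcripts of the clock activators Arntl, Npas2 and Clock and of the repressor Cry1 rose, as did 9 of 19 measured genes of cholesterol synthesis and uptake and the bile acid genes Hsd3b7 and Abcb11. Transcripts of the period genes, both REV-ERB genes, Ciart and the D-box factors Dbp and Tef fell, as did those of Mt1, Mt2, Saa1, Saa2 and the heat-shock gene Hspa1b. Of the 22206 features 441 were called (1.99%), with 280 higher at ZT22 (1.26%) and 161 lower (0.725%). These included 402 named genes, 257 higher and 145 lower. Of the calls, 151 were at least 2-fold higher and 97 at least 2-fold lower, and the median fold was 2.07 among the higher and 2.13 among the lower. The ZT14 and ZT22 arrays did not overlap in 385 of the 441, against 1489 of all features (6.71%), and the median difference over all features was −0.0025.

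Some facts of the arrays touch these counts. Correlations among the 8 arrays ran from 0.980 to 0.993 and 0 pairs were identical. The lower quartile of all values was 3.78, a level that may be background alone, and 3.76% of features above the median level were called against 0.216% of the rest. Tff3, a secreted trefoil peptide, measured 3.08, 13.26, 3.25 and 13.63 in ZT14a to ZT14d and 11.42, 3.84, 2.95 and 2.50 in ZT22a to ZT22d, so ZT14b, ZT14d and ZT22a stood apart. Without these and 2 such ZT6 arrays, which leaves 2 ZT14 and 3 ZT22 arrays, 244 features were called (1.10%), 174 higher and 70 lower. Of these 182 were among the 441, and all 441 kept their direction. The 441 were chosen for their difference in arrays that this fit shares, so a kept direction is a weak check. Single arrays mattered too: the count was 266 without ZT14b, 285 without ZT14d, 283 without ZT22c and 254 without ZT22d, and 201 of the 441 (125 higher, 76 lower) were called whichever of the 8 arrays was left out. Where this smaller fit changed the number of calls in a list, the change is given below with that list. The counts called in each list below stand against 1.26% of all features called higher and 0.725% called lower.

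**Figure D1:**
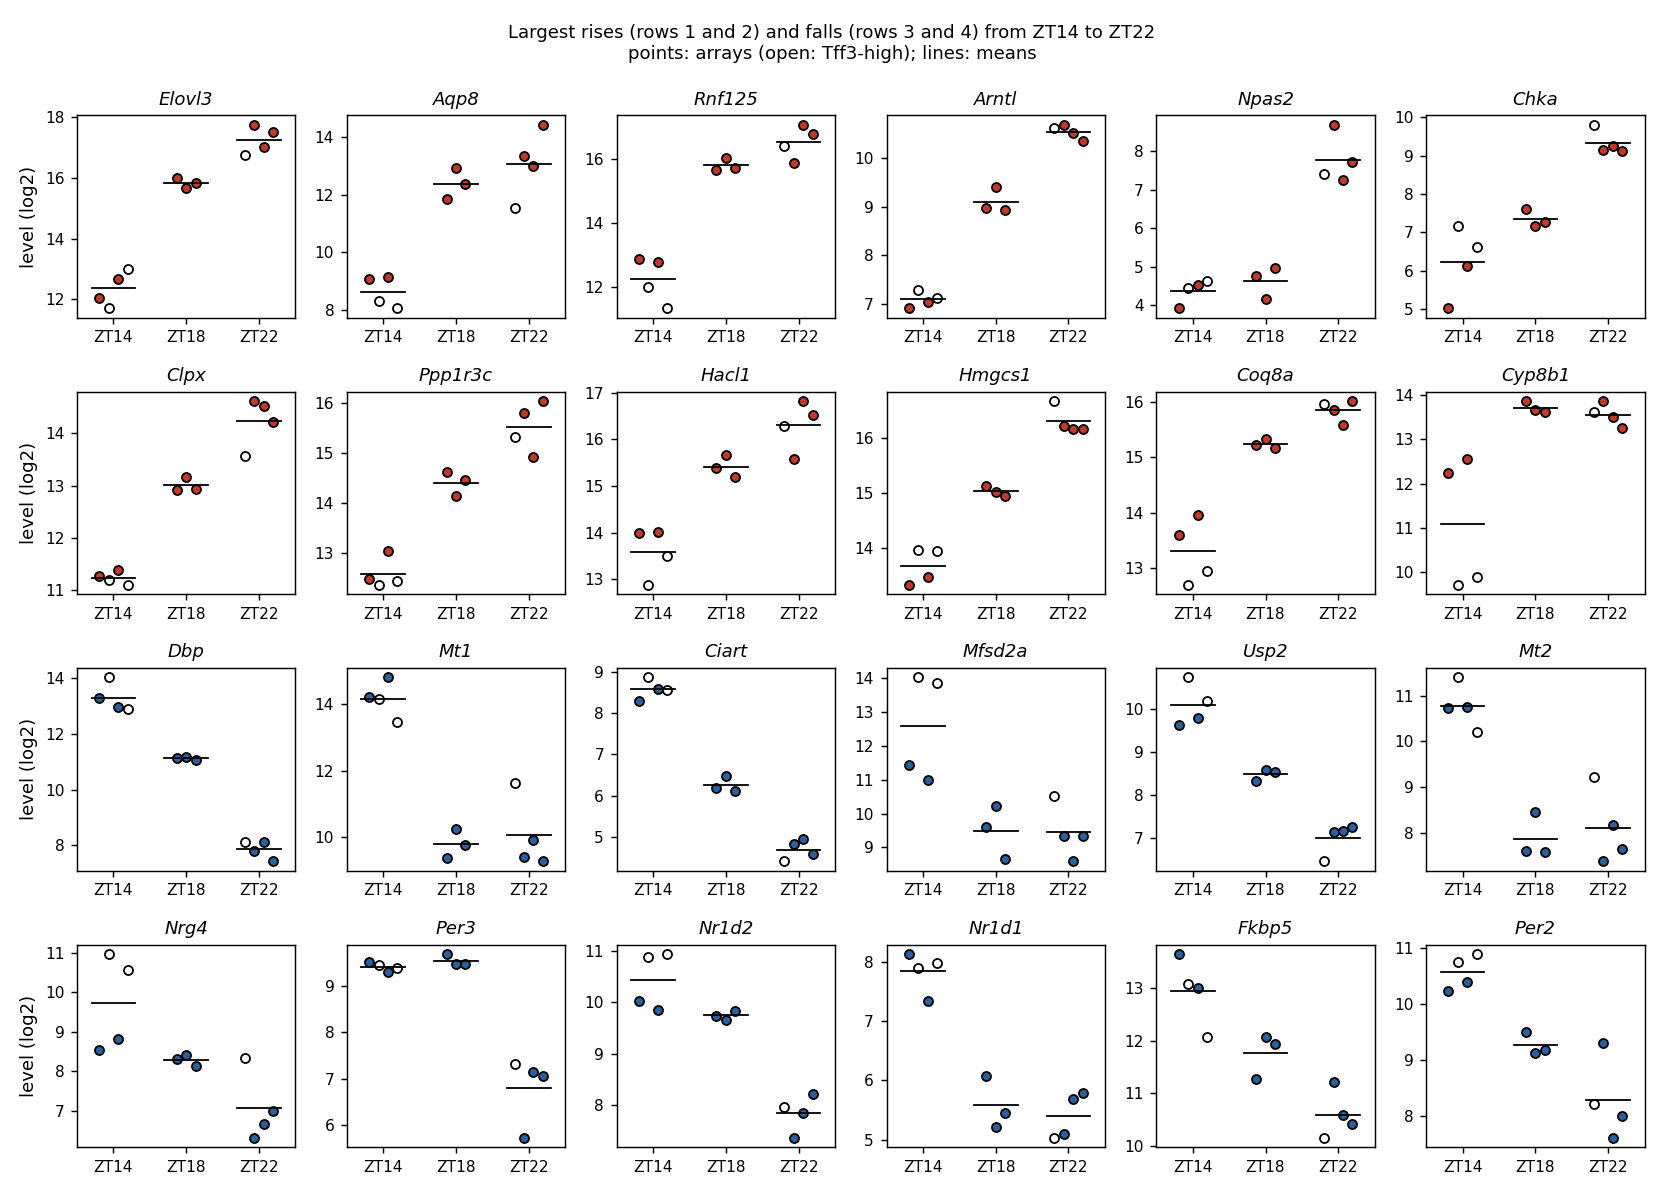
Levels (log2) of the 12 genes of largest rise and the 12 of largest fall among named genes whose ZT14 and ZT22 arrays did not overlap. Points are arrays (open for ZT14b, ZT14d and ZT22a, where Tff3 was high), lines are means, and each panel has its own level axis. Npas2 and Per3 at ZT18 lay with ZT14, whereas Mt1 and Cyp8b1 at ZT18 lay with ZT22.

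The ZT18 arrays, which took no part in the difference itself, lay mostly on the way. Among features called higher at ZT22, the ZT18 mean was between the other means in 242 of 280 (86.4%), above both in 35 and below both in 3. Among those called lower it was between in 137 of 161 (85.1%), below both in 19 and above both in 5. The median share of the difference already present at ZT18 was 71.0% for the higher and 59.7% for the lower features, and it was at least 50% in 209 of 280 and 101 of 161. These shares are descriptions without a test, since the ZT14 and ZT22 means that define them also chose the features. Of the higher features 156 had their highest mean of the 6 times at ZT22 and 78 at ZT2, and 177 had their lowest at ZT14. Of the lower features 119 were highest at ZT14, and 77 had their lowest mean at ZT2 and 51 at ZT22. These counts of peaks and troughs are descriptions as well. Features chosen for unlike ZT14 and ZT22 means tend to have their extremes at those times.

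**Figure D2:**
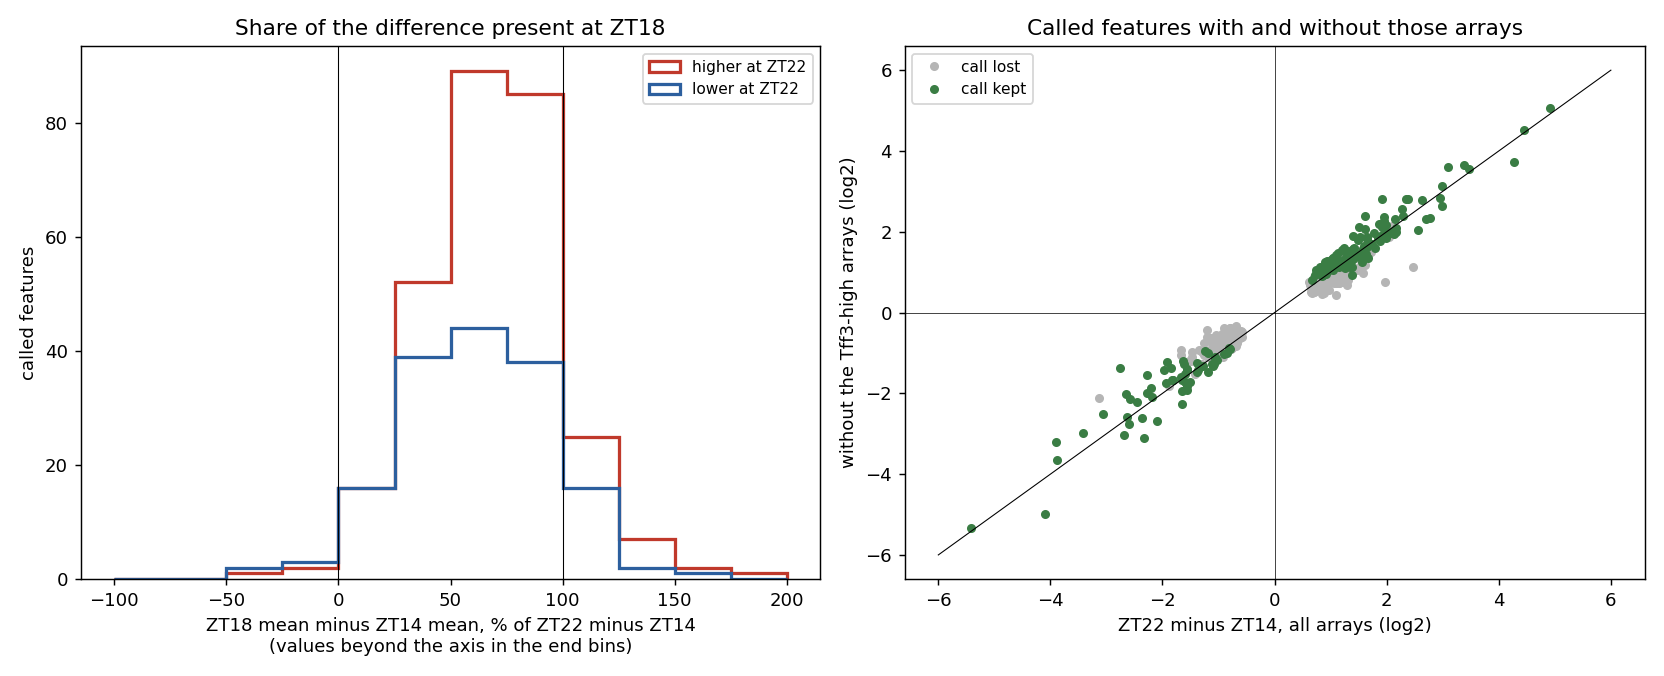
The left panel counts the 441 called features by the share of their ZT22 minus ZT14 difference present at ZT18 (25-point bins, lines at 0% and 100%), with medians of 71.0% for the higher and 59.7% for the lower. The right panel sets each feature's difference (log2) against its difference without the Tff3-high arrays, green where the call was kept (182) and grey where it was lost, and every point lies in the quadrants of equal sign. The fits share arrays that also chose the features, which favours equal signs.

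Among the core clock genes, 4 of 14 measured were called higher at ZT22 and 6 lower, as many as without the Tff3-high arrays, with a median difference of −0.81. The 4 that rose were the activators Arntl, Npas2 and Clock and the repressor Cry1. Arntl measured 6.90, 7.29, 7.03 and 7.12 at ZT14, 8.98, 9.40 and 8.93 at ZT18, and 10.62, 10.70, 10.53 and 10.36 at ZT22. The 3 times formed separate steps, with ZT22 an 11.1-fold level of ZT14 (difference 3.47 ± 0.29 SE, adjusted p = 7.01e-08). Npas2, which can replace CLOCK, measured 3.92, 4.44, 4.53 and 4.62 at ZT14, 4.76, 4.17 and 4.98 at ZT18 and 7.40, 8.69, 7.24 and 7.71 at ZT22. Its rise of 3.38 ± 0.33 (adjusted p = 4.58e-07) thus fell almost wholly after ZT18, when 7.66% of the difference was present, against 58.2% for Arntl and 52.3% for Clock. The ZT14 levels of Npas2 lie near background, which makes its 10.4-fold change uncertain. Clock rose 2.27-fold (1.18 ± 0.19, adjusted p = 0.000457) and Cry1 2.23-fold (1.16 ± 0.21, adjusted p = 0.00236).

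The repressors that fell were Ciart, Per3, Nr1d2, Nr1d1, Per2 and Per1. Ciart, also called CHRONO, an inhibitor of BMAL1, measured 8.30, 8.86, 8.59 and 8.55 at ZT14, 6.20, 6.47 and 6.12 at ZT18, and 4.42, 4.83, 4.96 and 4.59 at ZT22. It stepped down at each time and was 14.7-fold lower at ZT22 (−3.88 ± 0.31, adjusted p = 1.84e-08). Per3 measured 9.52, 9.44, 9.30 and 9.38 at ZT14, 9.69, 9.48 and 9.47 at ZT18, and 7.31, 5.73, 7.14 and 7.06 at ZT22. Its ZT14 and ZT18 arrays overlapped and the whole fall of 2.60 ± 0.36 on the log2 scale (adjusted p = 9.74e-05) came between ZT18 and ZT22. Nr1d1, the gene of REV-ERB alpha, took the other course, with 8.14, 7.90, 7.35 and 7.99 at ZT14, 6.07, 5.22 and 5.45 at ZT18, and 5.03, 5.09, 5.69 and 5.78 at ZT22. Of its difference of −2.45 ± 0.30 (adjusted p = 1.37e-05) 92.5% was present at ZT18, against 26.4% for its paralog Nr1d2 (−2.57 ± 0.22, adjusted p = 9.72e-08).

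Per2 was 4.87-fold lower at ZT22 (−2.28 ± 0.31, adjusted p = 8.92e-05) and Per1 3.82-fold lower (−1.93 ± 0.37, adjusted p = 0.00349). Per2 did not overlap between the groups, but Per1 did, since ZT14a at 6.41 lay below ZT22a at 6.53. The other 4 members were not called. Rora, an activator of Arntl, differed by 0.69 ± 0.20 (adjusted p = 0.0777), Bhlhe40 by −0.96 ± 0.30 (adjusted p = 0.105), Bhlhe41 by −0.67 ± 0.43 (adjusted p = 0.605) and Cry2 by −0.50 ± 0.20 (adjusted p = 0.259).

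**Figure D3:**
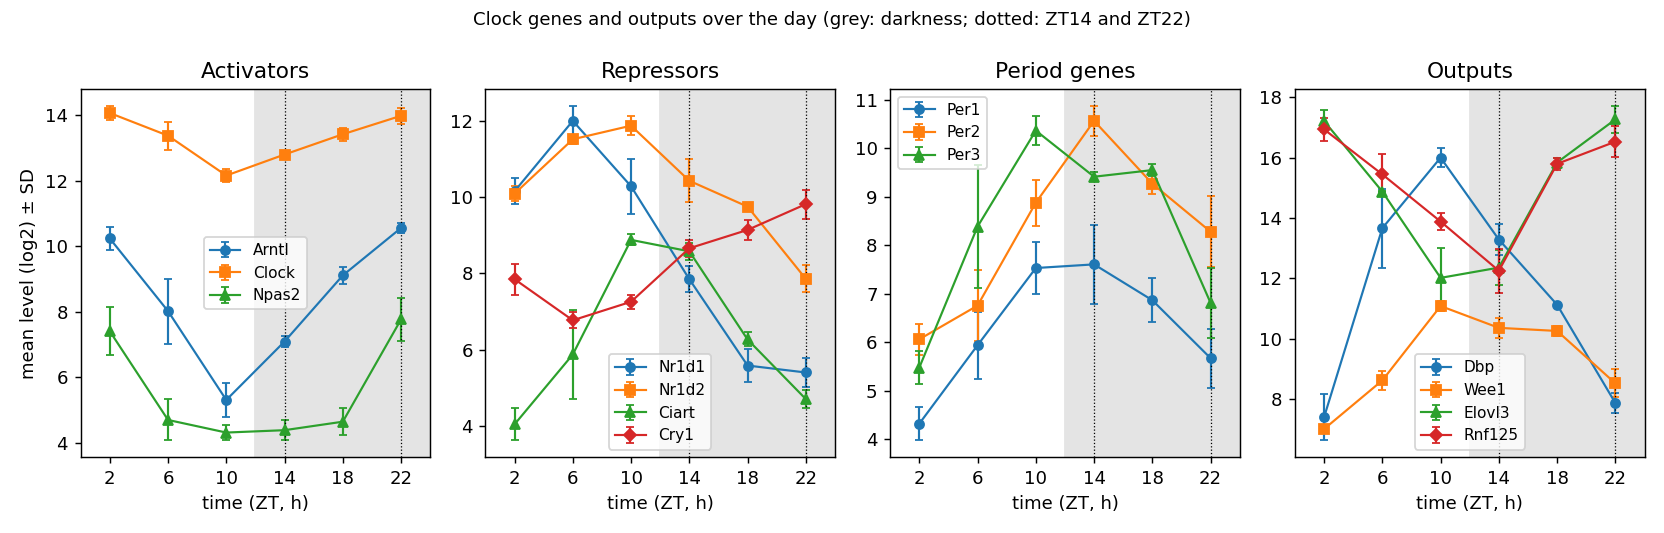
Mean level (log2) ± SD at the 6 times (3 or 4 arrays each) for activators, repressors, period genes and outputs of the clock, with darkness in grey and ZT14 and ZT22 dotted. Arntl, Clock, Npas2, Cry1, Elovl3 and Rnf125 stood higher at ZT22 than at ZT14, and the other genes drawn stood lower.

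In the list of PAR bZIP factors and clock outputs 6 of 21 were called higher and 7 lower (5 and 7 without the Tff3-high arrays), with a median of −0.99. Dbp measured 13.27, 14.02, 12.97 and 12.89 at ZT14, 11.13, 11.18 and 11.07 at ZT18, and 8.13, 7.79, 8.14 and 7.43 at ZT22. This was the largest difference of any named gene, 42.7-fold lower at ZT22 (−5.42 ± 0.39, adjusted p = 4.79e-09), and the 3 times did not overlap. Its relative Tef fell 3.07-fold (−1.62 ± 0.29, adjusted p = 0.00217), with ZT22 arrays from 3.50 to 4.12 near background, while Hlf was not called (−0.69 ± 0.22, adjusted p = 0.109). Nfil3, which competes with these factors for D-boxes, went the other way, from 8.0, 7.15, 7.48 and 7.65 at ZT14 to 9.10, 8.71, 8.58 and 9.30 at ZT22. The groups were apart and the rise was 2.55-fold (1.35 ± 0.21, adjusted p = 0.000369).

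Outputs of the list moved in both directions. Usp2, a deubiquitinase, measured 9.61, 10.72, 9.79 and 10.17 at ZT14 and 6.47, 7.14, 7.17 and 7.27 at ZT22, an 8.34-fold fall (−3.06 ± 0.52, adjusted p = 0.0011). Wee1, a kinase that holds back mitosis, measured 9.86, 10.52, 10.61 and 10.46 at ZT14, 10.08, 10.39 and 10.31 at ZT18, and 8.43, 7.92, 8.98 and 8.77 at ZT22. The ZT18 arrays lay within the ZT14 range, and the 3.57-fold fall (−1.84 ± 0.21, adjusted p = 6.23e-06) came after it. The output that rose most, Elovl3, which lengthens very long fatty acids, measured 12.06, 11.70, 12.66 and 13.01 at ZT14, 16.00, 15.67 and 15.84 at ZT18, and 16.76, 17.76, 17.03 and 17.51 at ZT22. It was 30.0-fold higher at ZT22 (4.91 ± 0.35, adjusted p = 4.00e-09), the largest rise of a named gene, with the steps apart. Rnf125, a ubiquitin ligase, rose 19.4-fold (4.28 ± 0.32, adjusted p = 5.70e-09), from 11.33 to 12.88 at ZT14 to between 15.86 and 17.07 at ZT22.

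Promoter sequences from RefSeq (GRCm38.p6, 250 bases before to 50 after each start) were held for 15691 of the 19505 named genes, and a gene was counted if any of its windows matched on either strand. The E-box CACGTG stood in 23 of 121 genes called lower (19%), 25 of 208 called higher (12%) and 1453 of 15691 in all (9.26%). The D-box (TTATGTAA or TTACGTAA) stood in 7 of 121 called lower (5.79%), in 0 of 208 called higher, and in 181 of 15691 in all (1.15%). The 7 were Per3, Coq10b, Homer2, Gde1, Slc16a12, Ak4 and Baz1b. The element AGGTCA, which ROR and REV-ERB receptors bind, stood in 32 of 121 lower (26.4%), 47 of 208 higher (22.6%) and 2557 of 15691 in all (16.3%). These matches are descriptions of letters in a window and were not tested. The 250 bases before the start are shown for Ciart, the gene of most E-box matches among those called (3), for Per3, with 2 D-box matches, and for Aqp8, which rose and holds 1 E-box, with the matches in capitals, 5′ to 3′ on the gene's strand. Ciart lies on the minus strand at chr3:95882229-95882478, Per3 on the minus strand at chr4:151044666-151044915 and Aqp8 on the plus strand at chr7:123462044-123462293.
Ciart: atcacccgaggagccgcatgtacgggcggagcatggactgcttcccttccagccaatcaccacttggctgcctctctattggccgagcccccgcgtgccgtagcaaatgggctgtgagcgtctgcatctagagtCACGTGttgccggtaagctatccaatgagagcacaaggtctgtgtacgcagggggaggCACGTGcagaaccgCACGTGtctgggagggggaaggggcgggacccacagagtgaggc
Per3: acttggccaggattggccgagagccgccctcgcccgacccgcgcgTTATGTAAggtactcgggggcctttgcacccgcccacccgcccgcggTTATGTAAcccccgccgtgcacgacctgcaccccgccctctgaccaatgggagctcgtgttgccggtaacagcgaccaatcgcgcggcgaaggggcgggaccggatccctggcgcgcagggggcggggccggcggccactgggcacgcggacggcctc
Aqp8: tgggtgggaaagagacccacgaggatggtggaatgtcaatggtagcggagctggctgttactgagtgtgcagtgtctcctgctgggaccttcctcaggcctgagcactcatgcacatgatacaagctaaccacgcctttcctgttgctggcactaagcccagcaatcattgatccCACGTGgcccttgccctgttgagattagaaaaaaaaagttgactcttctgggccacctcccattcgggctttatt

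Several of the largest rises lay outside the clock lists. Aqp8, a water and peroxide channel of hepatocytes, measured 9.05, 8.31, 9.12 and 8.04 at ZT14, 11.84, 12.95 and 12.39 at ZT18, and 11.55, 13.35, 13.00 and 14.45 at ZT22. It was 22.0-fold higher at ZT22 (4.46 ± 0.44, adjusted p = 5.57e-07), and ZT18 and ZT22 overlapped. Clpx, the unfoldase of a mitochondrial protease, had tight groups, 11.27, 11.20, 11.39 and 11.10 at ZT14 against 13.56, 14.62, 14.52 and 14.22 at ZT22 (7.95-fold, 2.99 ± 0.20, adjusted p = 1.79e-09). Chka, which starts phosphatidylcholine synthesis by phosphorylating choline, measured 5.02, 7.16, 6.13 and 6.63 at ZT14 and 9.81, 9.14, 9.26 and 9.12 at ZT22. Its groups were apart by about as much as the ZT14 arrays were from each other, and the rise was 8.56-fold (3.10 ± 0.45, adjusted p = 0.000196).

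Hacl1, a peroxisomal lyase of the alpha-oxidation of branched fatty acids, rose 6.52-fold (2.71 ± 0.27, adjusted p = 6.70e-07). Coq8a, which supports coenzyme Q synthesis, measured 13.59, 12.69, 13.96 and 12.95 at ZT14 and 15.96, 15.86, 15.59 and 16.02 at ZT22, a 5.90-fold rise (2.56 ± 0.23, adjusted p = 1.34e-07). The lower 2 of its ZT14 values were those of the Tff3-high arrays, and without those arrays its difference was 2.05. Cyp8b1, the sterol 12-alpha-hydroxylase that makes cholic acid, shows the same split more strongly, with 12.25 and 12.55 in ZT14a and ZT14c, 9.71 and 9.88 in ZT14b and ZT14d, and 13.63, 13.86, 13.51 and 13.25 at ZT22. Its 5.52-fold difference (2.47 ± 0.44, adjusted p = 0.00206) became 1.14 without the Tff3-high arrays (adjusted p = 0.0914), which ended the call.

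Large falls outside the clock lists included those of Mt1, Mt2, Fkbp5, Nrg4 and Mfsd2a. Mt1, which binds zinc and is induced by glucocorticoids and metals, measured 14.22, 14.16, 14.81 and 13.47 at ZT14, 9.37, 10.25 and 9.76 at ZT18, and 11.65, 9.42, 9.91 and 9.28 at ZT22. It was 17.2-fold lower at ZT22 (−4.10 ± 0.64, adjusted p = 0.000457), ZT18 had already reached the ZT22 range, and ZT22a lay above the other ZT22 arrays. Mt2 followed with a 6.41-fold fall (−2.68 ± 0.58, adjusted p = 0.0116), but its call ended without ZT14b (adjusted p = 0.0518) or ZT22d (adjusted p = 0.052). Fkbp5, a co-chaperone of the glucocorticoid receptor and one of its targets, measured 13.66, 13.09, 13.01 and 12.07 at ZT14 and 10.15, 11.22, 10.58 and 10.41 at ZT22. All ZT14 arrays lay above all ZT22 arrays (5.16-fold, −2.37 ± 0.29, adjusted p = 1.37e-05).

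Nrg4, a secreted ligand of the ERBB4 receptor, fell 6.27-fold (−2.65 ± 0.43, adjusted p = 0.000591), and Mfsd2a, the transporter of lysophosphatidylcholine with omega-3 fatty acids, fell 8.75-fold (−3.13 ± 0.64, adjusted p = 0.00705). In both, the ZT14 arrays split by Tff3. Mfsd2a measured 11.42 and 11.00 in ZT14a and ZT14c, 14.02 and 13.87 in ZT14b and ZT14d, and 10.52, 9.34, 8.59 and 9.34 at ZT22, and without the Tff3-high arrays its difference was −2.12 (adjusted p = 0.0764), which ended the call. The call of Nrg4 was kept there, at −2.02 (adjusted p = 4.10e-05).

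In cholesterol synthesis and uptake 9 of 19 measured genes were called higher and 0 lower, all 19 had a positive difference and the median was 0.91. As many were called without the Tff3-high arrays, where Hsd17b7 was lost and Cyp51 gained. Hmgcs1, which makes the precursor of mevalonate, measured 13.33, 13.97, 13.48 and 13.94 at ZT14, 15.13, 15.01 and 14.95 at ZT18, and 16.67, 16.22, 16.16 and 16.17 at ZT22. The steps were apart and the rise was 6.17-fold (2.63 ± 0.24, adjusted p = 2.21e-07). The next enzymes of the mevalonate branch followed, with Pmvk 1.42 ± 0.30 higher on the log2 scale (adjusted p = 0.00825), Idi1 1.33 ± 0.22 (adjusted p = 0.000687) and Fdps 1.09 ± 0.23 (adjusted p = 0.00882). Pmvk and Fdps overlapped between the groups, while Idi1 did not, at 11.91, 12.23, 11.89 and 12.50 against 13.63, 13.31, 13.45 and 13.47.

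Of the squalene and sterol branch, Fdft1, the squalene synthase, rose 2.59-fold (1.37 ± 0.21, adjusted p = 0.000318). Dhcr7, which makes cholesterol from its last precursor, measured 10.36, 12.35, 10.83 and 12.16 at ZT14 and 13.21, 13.22, 12.73 and 13.00 at ZT22, with the Tff3-high arrays the upper ZT14 values (1.61 ± 0.35, adjusted p = 0.0118). Its difference was 2.39 without those arrays, and its call ended without ZT14a (1.26, adjusted p = 0.052). Msmo1, Hsd17b7 and Ebp were the other 3 called, at 1.43 ± 0.29, 0.91 ± 0.23 and 0.67 ± 0.16. The call of Hsd17b7 ended in 6 of the 8 omissions of an array and that of Ebp in 4, with adjusted p-values up to 0.101 (without ZT14a) and 0.0991 (without ZT22d). Srebf2, the master factor of the pathway, and Insig1, which restrains it, were not called. Srebf2 differed by 0.34 ± 0.18 (adjusted p = 0.488) and Insig1 by 0.21 ± 0.21 (adjusted p = 0.792).

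In bile acid synthesis and transport 3 of 22 were called, all higher (2 without the Tff3-high arrays), with a median of 0.18. Beside Cyp8b1 these were Hsd3b7, which acts early in the pathway, and Abcb11, the bile salt export pump. Abcb11 measured 13.20, 13.43, 13.02 and 13.23 at ZT14, 13.57, 13.41 and 13.89 at ZT18, and 14.40, 14.83, 14.67 and 14.56 at ZT22, so that the ZT22 arrays lay above all others (2.63-fold, 1.40 ± 0.16, adjusted p = 1.02e-05). Hsd3b7 rose 3.97-fold (1.99 ± 0.25, adjusted p = 2.52e-05).

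**Figure D4:**
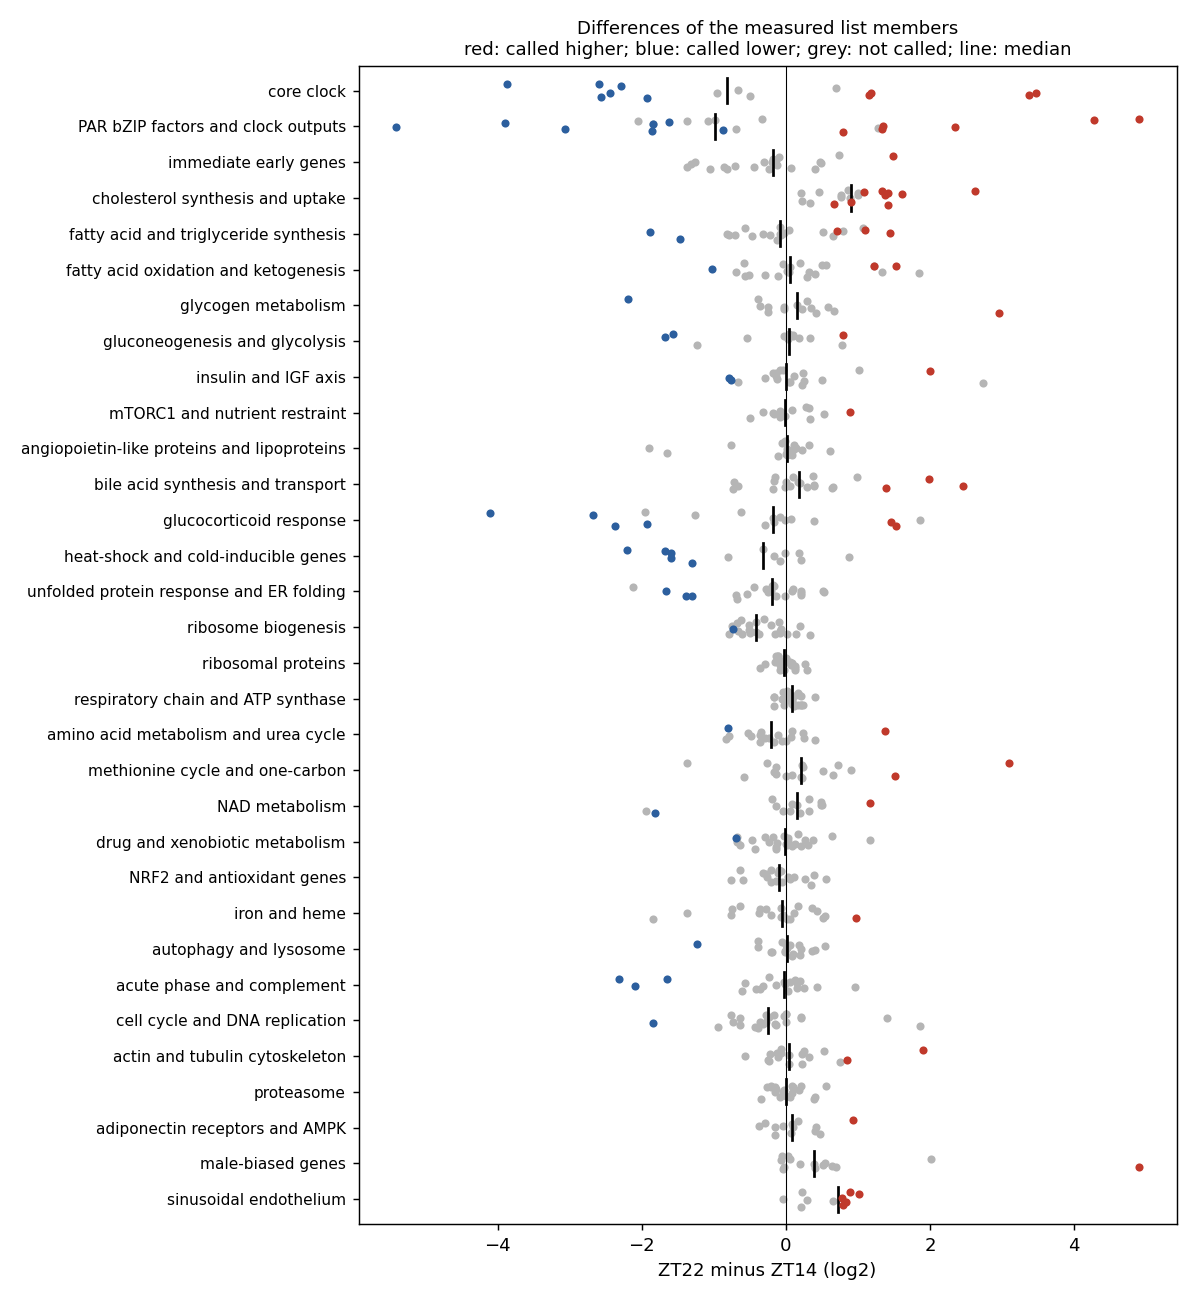
ZT22 minus ZT14 (log2) of the measured members of the 31 pathway lists and of the sinusoidal endothelium markers, red for called higher, blue for called lower, grey for not called, with the list's median as a line. Cholesterol synthesis lies wholly to the right of 0, the clock lists spread widest, and ribosomal proteins, the respiratory chain and the proteasome stay close to 0.

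Genes of fat metabolism moved in both directions. In fatty acid and triglyceride synthesis 3 of 22 were called higher and 2 lower, with a median of −0.08, and limma called 0 without the Tff3-high arrays, where 10 had an unadjusted p under 0.05, against 2626 of all features in that fit (11.8%). Acss2, which makes acetyl-CoA from acetate, went from 10.56, 10.64, 10.70 and 10.79 at ZT14 to 12.54, 12.38, 11.33 and 12.22 at ZT22, with tight ZT14 arrays and no overlap (2.72-fold, adjusted p = 0.00376). Acacb and Gpam were the others called higher, and their calls ended in 4 and 7 of the 8 omissions of an array, with adjusted p-values up to 0.11 (without ZT22d) and 0.109 (without ZT14b). Lpin1, the phosphatidate phosphatase, and Elovl6, the elongase of palmitate, were called lower (−1.89 ± 0.43 and −1.47 ± 0.33). Lpin1 overlapped between the groups, and both calls ended without ZT14b (adjusted p = 0.0837 for Lpin1 and 0.0597 for Elovl6). Elovl6 was lost without ZT14d too (0.0543), and Lpin1 without ZT22a (0.0534), ZT22b (0.0605) or ZT22c (0.0676).

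In fatty acid oxidation and ketogenesis 2 of 23 were called higher and 1 lower (1 and 0 without the Tff3-high arrays), with a median of 0.05. Pdk4, which turns off glucose oxidation, rose 2.88-fold (1.53 ± 0.32, adjusted p = 0.00792), from 4.93, 5.91, 6.16 and 6.18 at ZT14 to 7.0, 7.65, 6.91 and 7.72 at ZT22. Plin2, the coat of lipid droplets, rose 2.34-fold (1.23 ± 0.23, adjusted p = 0.00381). Cpt1a, which admits fatty acids to mitochondria, was called 2.03-fold lower, with groups that overlapped and a call that ended in 5 of 8 omissions of an array (adjusted p up to 0.118, without ZT14b).

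Glycogen metabolism held a pair of large and opposite changes among 15 measured genes, with 1 called higher, 1 lower and a median of 0.16. Ppp1r3c, which brings phosphatase 1 to glycogen, measured 12.47, 12.36, 13.03 and 12.43 at ZT14, 14.63, 14.15 and 14.46 at ZT18, and 15.33, 15.81, 14.93 and 16.05 at ZT22 (7.77-fold, 2.96 ± 0.26, adjusted p = 1.25e-07). Gys2, the liver glycogen synthase, measured 13.42, 13.80, 13.93 and 13.69 at ZT14, 12.95, 13.30 and 13.12 at ZT18, and 11.31, 11.35, 11.91 and 11.52 at ZT22 (4.56-fold lower, −2.19 ± 0.20, adjusted p = 2.77e-07). Both steps were free of overlap between ZT14 and ZT22. The related subunit gene Ppp1r3b was not called (0.23 ± 0.31, adjusted p = 0.864), nor was the phosphorylase Pygl (0.42 ± 0.23, adjusted p = 0.498).

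In gluconeogenesis and glycolysis 1 of 13 was called higher and 2 lower (0 and 2 without the Tff3-high arrays), with a median of 0.045. Slc37a4, the glucose-6-phosphate carrier of the endoplasmic reticulum, measured 14.49, 14.29, 14.68 and 14.47 at ZT14 and 12.22, 13.07, 12.60 and 13.33 at ZT22 (3.20-fold lower, −1.68 ± 0.23, adjusted p = 8.28e-05). Pck1, which commits carbon to glucose, was called lower with overlapping groups, at 16.79, 18.03, 16.65 and 18.09 against 17.29, 15.13, 15.15 and 15.71. The high arrays of each group were the Tff3-high ones, and the call of Pck1 (−1.57 ± 0.38, adjusted p = 0.0272) ended in 5 of 8 omissions of an array, with an adjusted p up to 0.122 (without ZT22c). The lactate carrier Slc16a1 was the gene called higher (0.80 ± 0.20, adjusted p = 0.0366), a call that ended in 6 of 8 omissions (adjusted p up to 0.131, without ZT22d) and was lost without the Tff3-high arrays (adjusted p = 0.11).

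In the insulin and IGF axis 1 of 20 was called higher and 2 lower (1 and 0 without the Tff3-high arrays), with a median of 0.00. Irs2, an adaptor of the insulin receptor that insulin represses, measured 7.07, 7.92, 7.99 and 8.13 at ZT14, 7.57, 9.27 and 7.91 at ZT18, and 10.65, 9.03, 9.47 and 9.97 at ZT22 (4.01-fold, 2.00 ± 0.38, adjusted p = 0.00324). Igfbp1, also repressed by insulin, missed the threshold at 2.74 ± 0.74 (adjusted p = 0.0532), with arrays from 4.43 to 6.42 at ZT14 and from 6.11 to 9.73 at ZT22. Igfbp4, which binds IGF, and the insulin signalling kinase Akt1 were called lower (−0.79 ± 0.15 and −0.76 ± 0.19), Akt1 in 2 of 8 omissions of an array (adjusted p up to 0.124, without ZT14d). Among the mTORC1 genes 1 of 13 was called higher, Tsc1 (0.89 ± 0.22, adjusted p = 0.0276), a call lost without the Tff3-high arrays. Among adiponectin receptors and AMPK genes 1 of 13 was called higher, the adaptor Appl1 (0.94 ± 0.24, adjusted p = 0.0391), lost in that fit too. The adjusted p reached 0.105 for Tsc1 without ZT14a and 0.134 for Appl1 without ZT14b.

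Amino acid, methyl group and NAD genes held few calls. In amino acid metabolism and the urea cycle 1 of 20 was called higher, Hal (1.38 ± 0.22, adjusted p = 0.000464), which starts histidine breakdown, and 1 lower, the glutamine carrier Slc38a3 (−0.81 ± 0.20, adjusted p = 0.0317, and up to 0.151 when ZT22c was left out). In the methionine cycle 2 of 18 were called, both higher, Chka and Bhmt, which remethylates homocysteine (1.51 ± 0.36, adjusted p = 0.0253, lost without the Tff3-high arrays). In NAD metabolism 1 of 15 was called in each direction. Nampt, which makes nicotinamide mononucleotide in the salvage route, measured 11.84, 12.65, 11.71 and 12.58 at ZT14 and 11.19, 9.51, 10.55 and 10.28 at ZT22 (3.51-fold lower, −1.81 ± 0.28, adjusted p = 0.000341). Kynu, a kynurenine enzyme of the route from tryptophan, rose 2.26-fold (1.18 ± 0.21, adjusted p = 0.0018).

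In the glucocorticoid list 4 of 17 were called lower (Mt1, Mt2, Fkbp5 and Per1) and 2 higher (Pdk4 and Klf9), as many as without the Tff3-high arrays, with a median of −0.18. Klf9, a glucocorticoid-induced factor, rose 1.46 ± 0.26 (adjusted p = 0.00212), against the 4 that fell, and its own call was lost without those arrays. In the heat-shock and cold-inducible list 5 of 13 were called, all lower (2 without the Tff3-high arrays), with a median of −0.31. Hspa1b, an inducible HSP70, measured 9.18, 8.90, 7.13 and 8.81 at ZT14, 6.13, 6.05 and 6.38 at ZT18, and 6.32, 6.43, 5.92 and 6.51 at ZT22, so that the fall of 4.63-fold (−2.21 ± 0.30, adjusted p = 7.34e-05) was complete at ZT18. Rbm3, a cold-inducible RNA-binding protein, fell later, from 13.06, 13.07, 13.24 and 13.40 at ZT14 through 13.17, 12.67 and 12.45 at ZT18 to 12.07, 11.74, 11.30 and 11.26 at ZT22 (−1.60 ± 0.23, adjusted p = 0.000122). Hspa1a, Dnajb1 and Hsph1 were the others called, Hsph1 with an adjusted p up to 0.117 (without ZT14d) in omissions of an array.

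In the unfolded protein response 3 of 23 were called, all lower (2 without the Tff3-high arrays), with a median of −0.20. Herpud1, which serves the breakdown of proteins from the endoplasmic reticulum, measured 17.56, 17.21, 17.57 and 16.86 at ZT14 and 14.91, 15.70, 15.60 and 16.36 at ZT22 (3.16-fold lower, −1.66 ± 0.25, adjusted p = 0.000295). Dnajb9 and Ddit3 fell 2.61-fold and 2.46-fold, and the call of Dnajb9 ended without ZT14a (adjusted p = 0.0669), ZT22a (0.0629) or ZT22c (0.0562). In the acute phase list 3 of 21 were called, all lower, with and without those arrays, with a median of −0.025. Saa1 measured 10.41, 8.91, 8.92 and 9.36 at ZT14, 7.52, 6.95 and 8.31 at ZT18, and 8.25, 7.49, 6.58 and 6.88 at ZT22, a 4.29-fold fall with no overlap (−2.10 ± 0.41, adjusted p = 0.00424). Steap4, a metalloreductase, fell 3.14-fold, and Saa2 5.00-fold with overlapping groups.

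The remaining lists held at most 2 calls. Ribosome biogenesis had a median of −0.41 and 1 of 25 called lower, Fbl, a methyltransferase of ribosomal RNA, whose call was lost without the Tff3-high arrays. At an unadjusted p under 0.05 there were 9 of the 25, all lower, against 2676 of all features (12.1%). Without the Tff3-high arrays there were 11 of the 25, all lower, against 2626 of all features (11.8%). The cell cycle list had 1 of 24 called lower, Wee1. Cdkn1a, an inhibitor of cyclin-dependent kinases, measured 4.90, 8.89, 5.51 and 9.02 at ZT14 and 9.53, 8.91, 8.02 and 9.33 at ZT22. Its high ZT14 values were those of the Tff3-high arrays, and it was not called (1.87 ± 0.76, adjusted p = 0.288) with them but was without them (3.55, adjusted p = 0.000172). The cytoskeleton list had 2 of 18 called higher, Tubb2a (1.91 ± 0.39, adjusted p = 0.00748) and Vcl (lost without those arrays, adjusted p = 0.519). As many of the 18 were called higher without those arrays, where the list's median was 0.53 rather than 0.04. At an unadjusted p under 0.05 there were 3 with them (12.1% of all features) and 7 without them (11.8%), all higher. The immediate early list had 1 of 22 called higher, Btg1 (1.49 ± 0.23, adjusted p = 0.000483), an antiproliferative factor. Iron and heme had 1 of 22 higher (Hjv) and drug metabolism 1 of 26 lower (Fmo5), and both calls were lost without the Tff3-high arrays (adjusted p = 0.133 and 0.21). Autophagy had 1 of 19 lower (Bnip3) and the male-biased genes 1 of 15 higher (Elovl3). With and without the Tff3-high arrays, limma called 0 of 17 angiopoietin-like and lipoprotein genes, 0 of 23 ribosomal proteins, 0 of 27 respiratory chain genes, 0 of 21 NRF2 and antioxidant genes and 0 of 21 proteasome subunits. At an unadjusted p under 0.05 the full fit gave 2, 1, 0, 3 and 2 of them, against 2676 of all features (12.1%), and the medians were 0.01, −0.02, 0.08, −0.09 and 0.005.

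Cell type markers were read beside these values. The mean level of 10 hepatocyte markers lay between 17.94 and 17.97 at ZT14 and between 17.91 and 17.97 at ZT22. Of 10 markers of sinusoidal endothelium 5 were called, all higher at ZT22, against 1.26% of all features, and the list's median was 0.72. The mean level of the 10 lay between 8.55 and 8.71 at ZT14 and between 9.07 and 9.33 at ZT22, without overlap. Kdr, the VEGF receptor 2, measured 10.61, 10.80, 10.55 and 10.50 at ZT14, 11.31, 11.64 and 11.53 at ZT18, and 11.40, 11.50, 11.50 and 11.40 at ZT22 (0.84 ± 0.18, adjusted p = 0.0116). Oit3 (1.02 ± 0.25), Stab2 (0.89 ± 0.23), Clec4g (0.80 ± 0.21) and Cdh5 (0.79 ± 0.19) were the others called, while Stab1 (−0.04 ± 0.19) and Pecam1 (0.30 ± 0.22) were not. Most of these calls were fragile: without the Tff3-high arrays only Oit3 and Cdh5 passed (adjusted p = 0.0448 and 0.0288), and that of Oit3 ended whichever of the 8 arrays was left out (adjusted p from 0.0511 to 0.121). Over the same omissions the call of Clec4g ended in 6 of 8 and those of Stab2 and Cdh5 in 5 each. That of Kdr, lost without the Tff3-high arrays, ended in 0 (adjusted p up to 0.0452). In such bulk RNA more cells of a type and more RNA per cell cannot be told apart, and their part in the other results was not tested.

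Among the other marker lists 1 gene was called, Pnpla2 of 7 adipocyte markers, lower at ZT22 (−0.95 ± 0.22, adjusted p = 0.0203) and lost without the Tff3-high arrays. It encodes a triglyceride lipase that hepatocytes use too. Of the other adipocyte markers, Lep, Plin1 and Retn lay between 2.68 and 4.02 in all 8 arrays. The mean level of the 7 lay between 5.79 and 6.18 at ZT14 and between 5.37 and 5.81 at ZT22. Their median difference was −0.31, and 0.11 without the Tff3-high arrays. In each of these fits 2 of the 7 had an unadjusted p under 0.05, both lower, against 12.1% and 11.8% of all features. Limma called 0 of 10 hepatocyte, 10 Kupffer, 10 stellate, 8 cholangiocyte, 12 lymphocyte, 8 neutrophil, 2 erythroid, 9 pancreatic acinar and 11 intestinal markers. At an unadjusted p under 0.05 there were 1 hepatocyte (lower), 3 Kupffer (2 higher, 1 lower), 1 stellate (higher) and 3 lymphocyte markers (lower). The others of these lists had 0, and the share of all features was 12.1%. Without the Tff3-high arrays 5 Kupffer and 3 stellate markers passed it, all higher, with list medians of 0.51 and 0.26. In that fit 1 cholangiocyte and 1 lymphocyte marker were higher and 1 acinar marker lower, against 11.8% of all features. The mean level of the Kupffer markers lay between 6.56 and 7.50 at ZT14 and between 6.88 and 7.45 at ZT22. Adipoq, the deleted gene, lay between 3.33 and 4.69 in the 8 arrays and was not called (0.09 ± 0.22, adjusted p = 0.933). Whether its probes lie in the deleted part is not known, and liver makes little of it, so this level checks the genotype little.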

How the data were processed

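RNA of 22 livers was measured on Clariom S arrays from 100 ng of RNA with the WT Plus kit, after TRIzol extraction, per the labels' protocols. The deposited values are log2 levels per transcript cluster, rounded to 2 decimals. How the authors corrected background, summarized probes and scaled arrays, and with which software and build, is not stated in the labels. The array medians of the 8 arrays lay between 5.30 and 5.35. Arrays have no read depth, and their number limits the precision.

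Features with 1 gene symbol in the platform annotation (19572 of 22206, for 19505 genes, with 2634 unnamed) were matched to RefSeq (GRCm38.p6) by gene ID. All matched. Several features of a gene were represented by the brightest. Analysis used R 4.3.3 and limma 3.58.1: lmFit and eBayes on 6 time means over all 22 arrays, contrast ZT22 minus ZT14, two-sided, no filter on dim features. Differences carry limma's standard error. The method was tested on simulated data.

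The comparison, its 31 pathway and 11 marker lists and the rule for named genes were chosen with earlier results of these data known. Named genes were the 12 largest rises and 12 largest falls among called genes whose groups did not overlap, every core clock gene, in each other pathway list the 4 or fewer with the lowest adjusted p, Adipoq, Tff3, and the highest and lowest member of each marker list. Predicted genes were left out. Other list members named as called or by level were chosen after their values were seen.

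Alternatives were quantile normalization, centring, features above the median level, eBayes with trend and robust prior, arrayWeights, the 8 arrays alone, a block on the replicate letter, omission of each array and of the Tff3-high arrays, a threshold of 0.01 and a minimum of 1.5-fold.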

Additional observations from a re-analysis of the deposited data

Results flagged for a closer look

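Among 141 named genes, the ZT14 and the ZT22 arrays of each were searched for an array far from the other 3 of its time (a gap to the nearest one, as a share of the range of the 4, above Dixon's critical value). In 282 such groups 10 were found, a smaller share than the about 1 in 20 that chance gives. ZT22a was far above the others for Tff3 (11.42, against 2.50 to 3.84), Saa2 (8.53, against 6.06 to 6.23) and Hmgcs1 (16.67, against 16.16 to 16.22), and below them for Usp2 (6.47, against 7.14 to 7.27).

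ZT14a was low for Per1 (6.41, against 7.87 to 8.17) and Psmd4 (11.40, against 11.67 to 11.70). ZT14c was high for Ppp1r3c (13.03, against 12.36 to 12.47) and low for Oat (15.06, against 15.93 to 16.00). ZT22b was low for Per3 (5.73, against 7.06 to 7.31), and ZT22d was high for Lpin1 (11.30, against 9.56 to 9.75). The array with Tff3 at 11.42 held 4 of the 10, among them Tff3 itself, the gene that had set this array apart.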

How the results depend on the processing

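All 72 called and 69 uncalled named genes kept their direction under the alternatives, except Adipoq near background, which ran from −0.1008 to 0.3525 over the omissions of 1 array and was −0.1008 without ZT14c, −0.0008 without ZT14d and −0.0425 without ZT22b. All settings reuse arrays of the main fit, so a kept direction is a weak check. The 441 calls (280 higher, 161 lower) became 662 (247 lower) among features above the median level, 657 (261 lower) with arrayWeights, 217 (129 higher, 88 lower) in a fit of the 8 arrays alone, 244 (174 higher, 70 lower) without the Tff3-high arrays and 201 (124 higher, 77 lower) at a threshold of 0.01. Leaving out single arrays gave 254 to 492 calls, 148 to 304 higher and 88 to 199 lower, and the share of calls that were higher, 63.49%, ran from 49.62% without ZT14a to 68.13%. Quantile normalization (488), centring (423), a trend and robust prior (539) and a 1.5-fold minimum (440) stayed within 1.5 times, and these scalings put the median of all features at −0.0038 (quantile) and 0.0137 (centring). With a replicate block on the letter 386 features were called, 370 of them shared, and 3 named genes lost their call. More named genes lost it elsewhere, 22 without the Tff3-high arrays and 18 in the fit of the 8 arrays alone. Over the omissions of 1 array between 2 (without ZT14c) and 14 (without ZT14b) lost it. The fit of the 8 arrays alone shared 208 of the 441 calls. Arrays of the same letter did not deviate together (correlations from −0.2277 to 0.0764), so the letters were not taken to pair them. Some settings use fewer features or arrays, and the causes of these changes were not tested. Levels about 3.78 cannot be told from background, which limits the folds of Npas2, Tef and Ciart.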

Other observations

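Some further called genes, chosen after their values were seen, stand here as single genes. Apart from Noct, already counted with the clock outputs called lower, they belong to no list above. Cldn1, of tight junctions, was 2.15 ± 0.25 higher at ZT22. The retinoid enzymes Dhrs3, Dhrs9 and Rdh11 were 2.13 ± 0.21, 1.99 ± 0.32 and 1.86 ± 0.33 higher, and other retinoid genes were not counted. These 4 calls were kept without the Tff3-high arrays. Insig2, a relative of Insig1 that also restrains sterol synthesis, was 2.30 ± 0.22 higher, with ZT14 arrays at 9.0, 8.90, 9.49 and 9.21 and ZT22 arrays at 10.91, 11.66, 11.65 and 11.58. Its groups did not overlap.

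Bag3, a co-chaperone of HSP70, fell by 1.64 on the log2 scale. Noct, a phosphatase of NADP that follows the clock, had a difference of −3.90 ± 0.78 (adjusted p = 0.00579), with ZT14 arrays at 9.85, 12.56, 9.16 and 12.57 and ZT22 arrays at 9.65, 6.67, 6.05 and 6.16. ZT14b, ZT14d and ZT22a, the Tff3-high arrays, were the highest of their groups, and the groups overlapped. Without those arrays the difference of Noct was −3.21 (adjusted p = 2.71e-05).

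Depp1, which FOXO factors induce, rose with overlapping groups, at 6.43, 6.16, 8.55 and 5.32 against 8.06, 10.25, 10.47 and 9.63 (2.99 ± 0.59, adjusted p = 0.00536). The groups of 56 of the 441 called features overlapped in this way.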
